A study of Ictalurus punctatus with 54 samples.

Results

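The step from 1 to 4 h after bacterial challenge was examined in channel catfish that had first been held for 24 h after copper sulfate (CuSO4) treatment. The comparison set 6 gills taken 4 h after challenge (Cu24h-4h) against 6 taken 1 h after challenge (Cu24h-1h), so 12 of the 54 libraries of the series entered it and no uninfected fish did. All 37586 listed transcripts were considered, and a transcript was a member of the step when it was a differentially expressed gene (DEG) between the 12 fish, with an FDR below 0.05 and a log2 fold change above 1 in size. Other fish of the series were used beside them. These were fish challenged directly after copper and sampled at 1, 4 or 24 h (Cu0h-1h, Cu0h-4h, Cu0h-24h), copper-treated fish challenged after the 24 h and sampled at 24 h (Cu24h-24h), uninfected fish sampled 24 h (Cu24h) or directly (Cu0h) after copper, and untreated controls, with 6 fish in each group. The copper concentration was recorded as 2.1 with the unit mg/mL in the sample labels and mg/L in the study's methods, and the bacterium is named F. columnare in the labels and F. covae in the methods. The labels describe the 24 h as copper exposure, whereas the methods describe both static holding and recovery in flowing water, so that "recovered" is used here as the study's word. No uninfected fish sampled alongside the 1 h and 4 h fish entered the design, so time since challenge, time since copper, handling and time of day cannot be told apart in this step.

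The gill is both the breathing surface of a fish and a barrier tissue in direct contact with the water. It holds epithelial, mucous, vascular and resident immune cells, and it is the main site at which columnaris bacteria attach. Early transcript changes after contact with a pathogen in fish gill commonly include inflammatory signals and their receptors, followed by genes of tissue repair and structure. The Ensembl transcript IDs were not paired with gene names in the sources used here (0 of 37586 matched), so neither the tissue nor any pathway could be checked against marker genes, and members are described by ID and by level.

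The deposited counts of the 12 libraries were low in total. The study's methods report far more raw reads per sample, and the reason for the gap was not determined. The total effective count, an estimated number of reads per transcript summed over all transcripts, was 554741 to 865300 in Cu24h-4h fish (median 754767) and 352013 to 741727 in Cu24h-1h fish (median 541036). The groups overlapped, but the 4 h libraries were deeper by 180404 counts on average (exact permutation test over 924 arrangements, two-sided p = 0.0433). After every library was thinned to 352013 counts, 15832 to 16866 transcripts were detected in Cu24h-4h fish (median 16125.5) and 14871 to 16434 in Cu24h-1h fish (median 16161.5). This difference of 332.5 in the mean was not larger than the spread between fish (exact permutation p = 0.297). It was 126 without Cu24h-1h replicate 4, the shallowest library and the lowest value, and 126 to 438 over all omissions of 1 fish. Across the first principal component of the filtered data, which held 17.6% of the variance, the 4 h and 1 h fish did not overlap but nearly met. The 4 h fish lay at -1.06 to 35.2 and the 1 h fish at -79.8 to -2.82. On components 2, 3 and 4 the groups overlapped. The study's methods report 3 replicate tanks for each treatment group, so fish of a group may share a tank. No source used here ties a fish to its tank, so p-values measure the spread between these fish only.

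Between 1 and 4 h, 107 of 6150 transcripts that passed the filter on low counts were DEGs, of which 45 were higher and 62 lower in Cu24h-4h fish (edgeR quasi-likelihood test, Benjamini-Hochberg adjustment). The DEGs made up 1.74% of the transcripts tested, with 0.732% called higher and 1.01% called lower. At an unadjusted p under 0.05, 872 transcripts passed (14.2%). The median log2 fold change over all tested transcripts was -0.01, near 0 as TMM scaling makes it. The remaining 31436 transcripts were not tested, and 8385 of the listed transcripts had 0 counts in all 12 fish. The tested transcripts carried 91.1% of the counts of these fish.

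**Figure D1:**
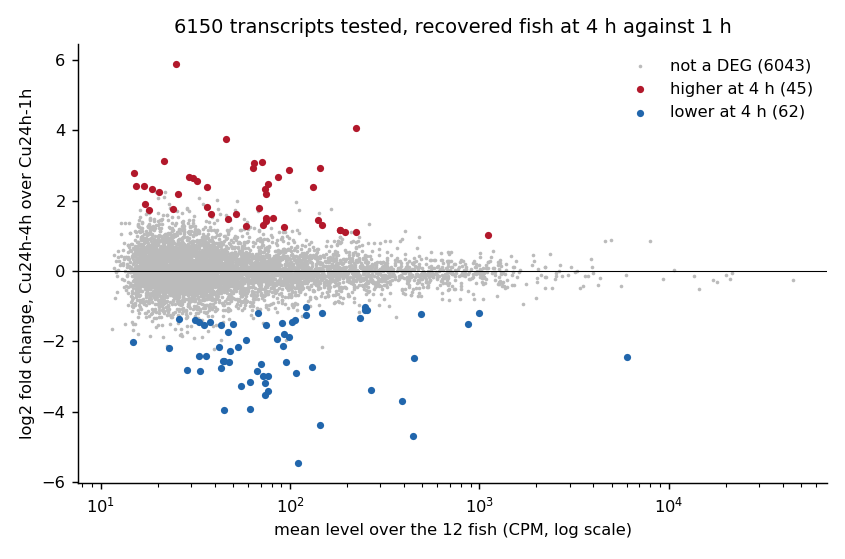
Log2 fold change of Cu24h-4h over Cu24h-1h against mean level over the 12 fish (CPM, log axis) for the 6150 transcripts tested. Red points are the 45 DEGs higher at 4 h, blue points the 62 DEGs lower at 4 h and grey points the rest. Mean levels run from 15.1 to 1108 CPM for the red and from 14.9 to 6046 CPM for the blue points.

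DEGs were found more often among abundant transcripts. Relative counting error is smaller there, but its part in this was not tested. Of the 2050 transcripts with the highest mean level (61.6 to 45619 CPM, counts scaled to 1000000 per library), 24 were higher and 37 lower in Cu24h-4h fish. In the middle 2050 (27.5 to 61.6 CPM), 10 were higher and 22 lower. In the 2050 with the lowest mean level (11.5 to 27.5 CPM), 11 were higher and 3 lower. Called transcripts therefore made up 2.98% of the highest, 1.56% of the middle and 0.683% of the lowest level class, and the balance between directions was not the same in each class.

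Most of the 45 transcripts that rose separated the fish by time point. Their median log2 fold change was 2.18 (range 1.01 to 5.88), and 24 exceeded 2. Their mean level had a median of 105 CPM in Cu24h-4h fish and 23.1 CPM in Cu24h-1h fish. For 29 of the 45 (64.4%) every 4 h fish lay above every 1 h fish, whereas the groups did not overlap for 1.59% of all transcripts tested. This count describes the choice of members, since both measures come from the same 12 fish. All 45 had counts in every 4 h fish, and 13 had 0 counts in at least 1 of the 1 h fish.

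Together the 45 took 0.585 to 0.741% of all counts in Cu24h-4h fish (median 0.667%) and 0.174 to 0.231% in Cu24h-1h fish (median 0.201%). Every 4 h fish was thus above every 1 h fish by a wide margin, and within each time point the 6 fish were close to each other. Choosing the 45 on these same fish favours both features, so they are given as a description.

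The largest rise among transcripts at 50 CPM or more without overlap between groups, of which 18 rose, was that of ENSIPUT00000011538. Its level was 212, 240, 454, 416, 486 and 723 CPM in Cu24h-4h replicates 1 to 6. In Cu24h-1h replicates 1 to 6 it was 13.0, 37.7, 39.8, 30.0, 19.0 and 11.4 CPM, so the lowest 4 h fish was above the highest 1 h fish. The mean was 422 ± 186 CPM in Cu24h-4h fish and 25.2 ± 12.4 CPM in Cu24h-1h fish (SD, n = 6 each), a log2 fold change of 4.07 (SE 0.36, edgeR adjusted p = 5.54e-06), which was the smallest p of the comparison. In uninfected Cu24h fish it had 16.9 to 172 CPM (median 64.2), below every Cu24h-4h fish.

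ENSIPUT00000011563 was lower and had the same 4 fish at its highest levels at 4 h. It had 85.9, 85.0, 132, 116, 143 and 202 CPM in Cu24h-4h replicates 1 to 6. In Cu24h-1h replicates 1 to 6 it had 8.68, 22.2, 21.7, 21.0, 10.9 and 6.49 CPM. The mean was 127 ± 43.6 CPM in Cu24h-4h fish and 15.2 ± 7.25 CPM in Cu24h-1h fish (SD, n = 6 each), a log2 fold change of 3.09 (SE 0.34, edgeR adjusted p = 9.10e-05). Whether these transcripts belong to 1 gene or to similar copies, between which an estimation program would divide reads, could not be checked without annotation.

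Both transcripts stood at their highest group median at 4 h in the recovered series. They were named for their rise in these same 4 h fish, which favours a high 4 h median, so the course is a description. ENSIPUT00000011538 had medians of 64.2 CPM in uninfected Cu24h fish, 24.5 CPM at 1 h, 435 CPM at 4 h and 77.1 CPM at 24 h after challenge, and ENSIPUT00000011563 had 25.9, 15.9, 124 and 33.8 CPM at these stages. At 24 h neither differed from uninfected Cu24h fish beyond the spread, with log2 fold changes of 0.04 (adjusted p = 0.958) and 0.24 (adjusted p = 0.712) in edgeR. In uninfected Cu0h fish, sampled directly after copper, ENSIPUT00000011538 ranged over 13.6 to 810 CPM (median 198), so that levels as high as those at 4 h also occurred without challenge.

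The 62 transcripts that fell had the same median size of change, and their groups overlapped more often than not. Their median log2 fold change was -2.18 (range -5.46 to -1.03), with 35 beyond 2 in size. Their mean level had a median of 21.2 CPM in Cu24h-4h fish and 130 CPM in Cu24h-1h fish. The groups did not overlap for 17 of the 62 (27.4%), against 1.59% of all transcripts tested. As for the risers, this count describes the choice of members, since the calls and the overlap come from the same fish. Of the 62, 9 had 0 counts in at least 1 of the 4 h fish. In whole gill, fewer cells of a type and less RNA per cell cannot be told apart.

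As a share of all counts the 62 took 0.387 to 0.665% in Cu24h-4h fish (median 0.535%) and 0.782 to 3.60% in Cu24h-1h fish (median 1.84%). As for the risers, the gap between the time points is a description, since the 62 were chosen on these fish. The 1 h fish were widely spread, with replicates 1 and 3 at 3.60% and 3.58% and replicate 2 at 0.782%, while the 4 h fish lay close together. These shares follow the most abundant faller, ENSIPUT00000010708, more than any other. It averaged 10200 CPM in Cu24h-1h and 1893 CPM in Cu24h-4h fish, and its groups overlapped. Over the 12 fish, the median of the mean levels of the 62 was 73.8 CPM. Cu24h-1h replicate 3 had the highest level of its group for 29 of the 62 transcripts (46.8%) and replicate 1 for 17 (27.4%), whereas over all tested transcripts these fish were highest for 20.1% and 16.4%.

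**Figure D2:**
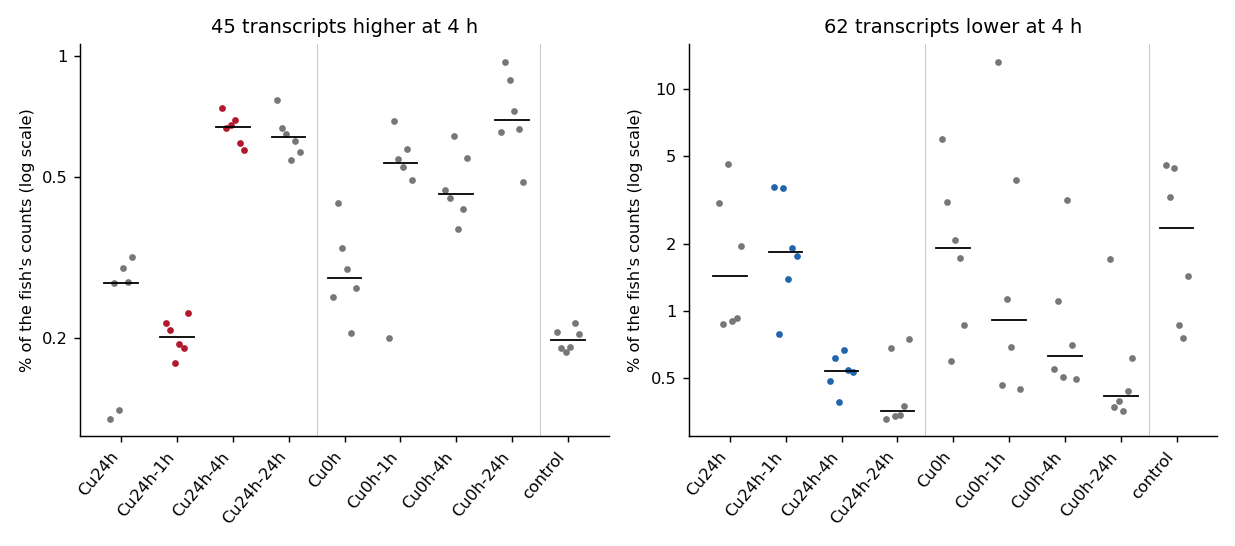
Share of each fish's counts (%, log axis) held by the 45 transcripts that rose (left) and the 62 that fell (right) between 1 and 4 h in recovered fish. The right panel follows ENSIPUT00000010708, the most abundant of the 62, more than any other transcript. Points are fish and bars are group medians, with the 12 fish that chose the members in colour. The Cu24h-4h fish lie at 0.585 to 0.741% for the risers, against 0.174 to 0.231% in Cu24h-1h fish. The choice of members on these fish favours such a gap.

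The largest fall under the naming rule, for which 12 falling transcripts qualified, was that of ENSIPUT00000017645. It had 0, 3.27, 0, 15.2, 9.41 and 0 CPM in Cu24h-4h replicates 1 to 6. In Cu24h-1h replicates 1 to 6 it had 490, 15.5, 280, 93.1, 227 and 185 CPM, so the groups did not overlap but Cu24h-1h replicate 2 lay just above the highest 4 h fish. The mean was 4.64 ± 6.33 CPM in Cu24h-4h fish and 215 ± 165 CPM in Cu24h-1h fish (SD, n = 6 each), a log2 fold change of -5.46 (SE 0.70, edgeR adjusted p = 0.000175), and 3 of the 6 fish at 4 h had 0 counts.

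ENSIPUT00000006983 fell less and was measured in every fish. Its level was 27.3, 9.81, 17.9, 16.3, 22.0 and 4.46 CPM in Cu24h-4h replicates 1 to 6. In Cu24h-1h replicates 1 to 6 it was 189, 42.2, 320, 51.1, 88.3 and 77.9 CPM, with the highest levels in the same pair of fish, replicates 3 and 1, as for ENSIPUT00000017645. The mean was 16.3 ± 8.23 CPM in Cu24h-4h fish and 128 ± 108 CPM in Cu24h-1h fish (SD, n = 6 each), a log2 fold change of -2.97 (SE 0.50, edgeR adjusted p = 0.00437). For neither falling transcript did the call hold when all 54 libraries shared 1 fit (adjusted p = 0.0914 for ENSIPUT00000017645 and 0.127 for ENSIPUT00000006983) or in limma-voom (adjusted p = 0.334 and 0.0551).

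**Figure D3:**
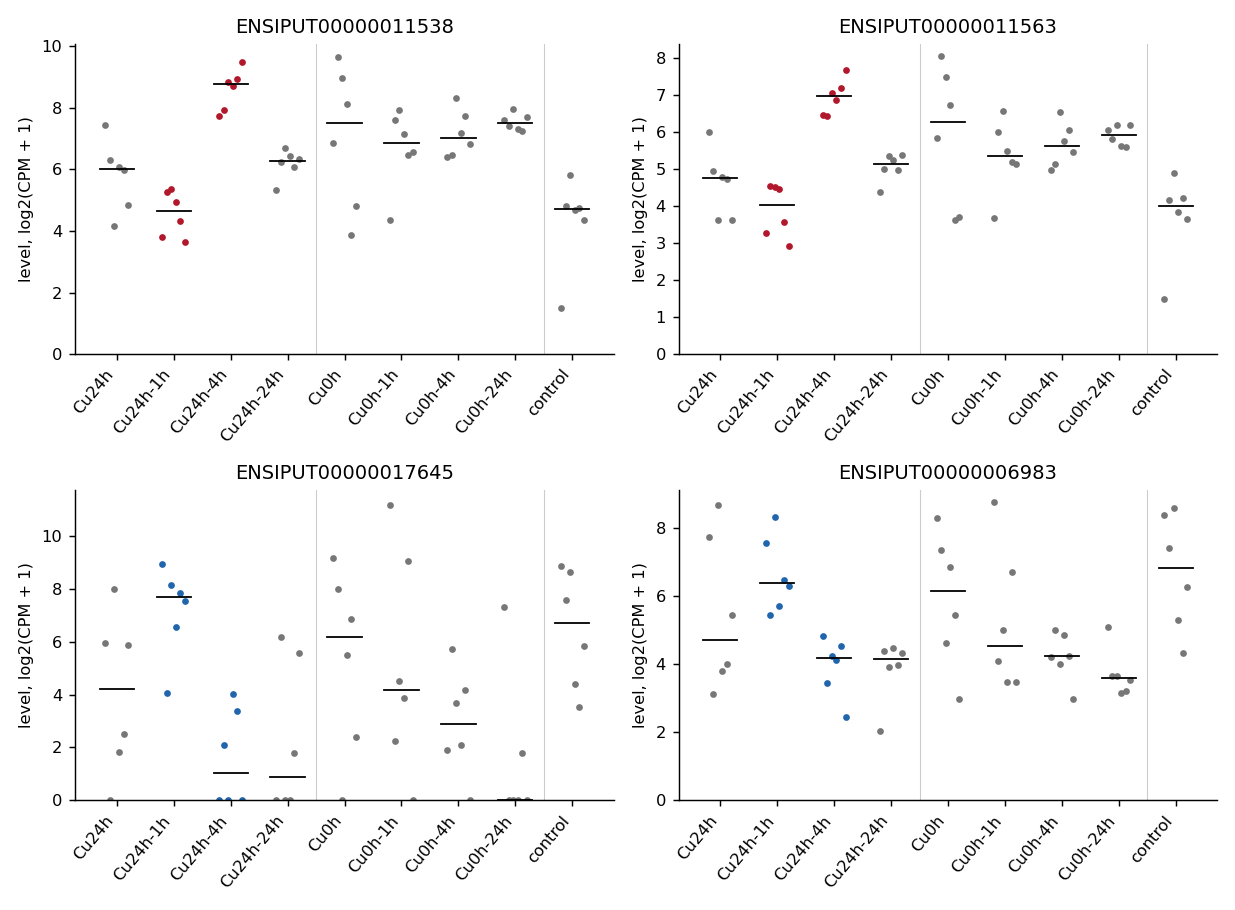
Level of the 4 named transcripts in every fish (log2(CPM + 1)) across the recovered series, the immediate series and the controls, with a bar at each group median. The rising pair peaks in Cu24h-4h fish (medians 435 and 124 CPM), and the falling pair varies widely between fish in several groups, with Cu0h-1h replicate 1 at 2298 CPM for ENSIPUT00000017645. The 4 were named for their change between the Cu24h-1h and Cu24h-4h fish, which favours such a peak in the rising pair.

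The split between directions was not the same under other fits. With all 9 groups in 1 edgeR fit, which tested 12680 transcripts, 44 transcripts were higher and 6 lower in Cu24h-4h fish, and these included 28 of the 45 risers but 4 of the 62 fallers. Limma-voom with library weights called 23 higher and 16 lower. Thinning all 12 libraries to the same total left 39 higher and 36 lower, 27 of them among the risers and 29 among the fallers. When single fish were left out, 24 to 42 of the risers and 42 to 58 of the fallers were called again, the fewest in both cases without Cu24h-1h replicate 5.

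**Figure D4:**
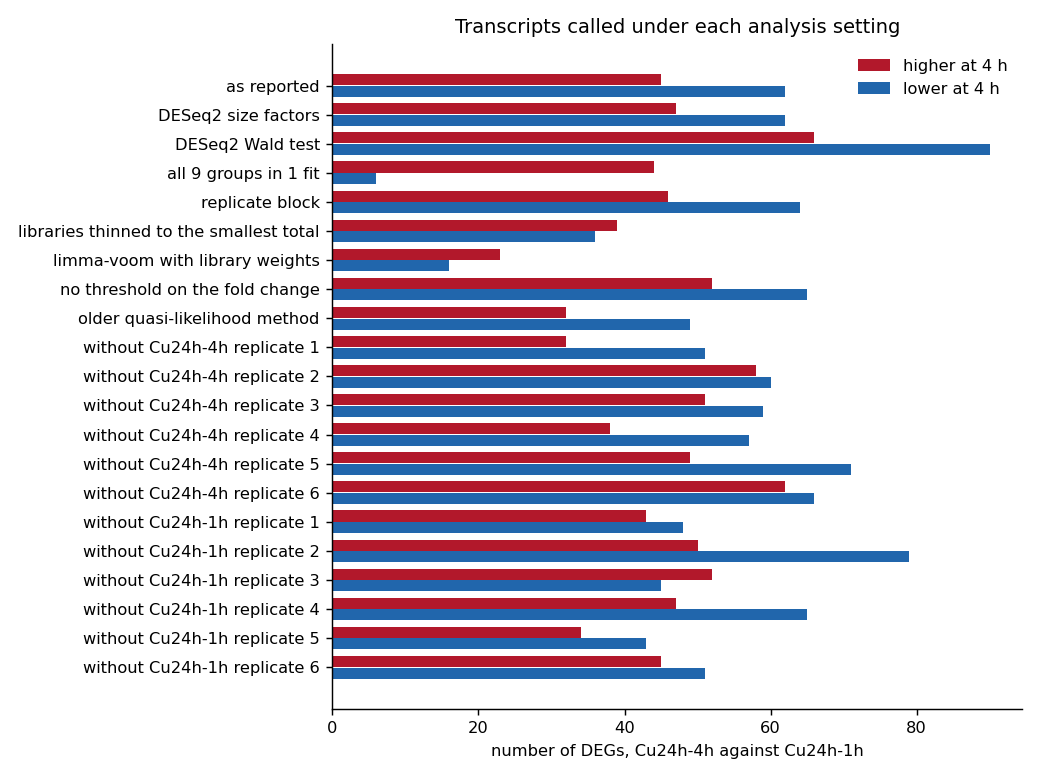
Number of DEGs higher (red) and lower (blue) in Cu24h-4h than in Cu24h-1h fish under each analysis setting, with the fit without a low-count filter left off for its 479 calls. Rises number 44 and falls 6 when all 9 groups are in 1 fit, against 45 and 62 as reported.

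The fallers varied more between fish than other transcripts in every group of the series. Within the untreated controls the median SD of log2(CPM + 1) over the 6 fish was 1.37 for the fallers, 0.86 for the risers and 0.57 for all tested transcripts. Among Cu0h-1h fish it was 2.27 for the fallers, 0.98 for the risers and 0.56 for all tested transcripts. Even in Cu24h-4h fish, where the fallers were low, it was 0.62 for the fallers, 0.52 for the risers and 0.56 for all tested.

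Single fish were high for many fallers at once. Cu0h-1h replicate 1 was the highest of its group for 52 of the 62 (83.9%, against 25.0% of all tested transcripts), and the fallers took 13.2% of its counts. Cu0h-24h replicate 1 was highest for 43, Cu0h replicate 1 for 42 and Cu0h-4h replicate 4 for 41 of the 62, against 15.8%, 13.7% and 27.5% of all tested transcripts. None of these fish was used to choose the members. In untreated controls the fallers took 0.754 to 4.54% of the counts (median 2.35%), a range that spans the values of all Cu24h-1h fish. Of the 62, ENSIPUT00000010708 alone averaged 18248 CPM in these controls. The part that differences between fish in sampled tissue or cell content had in the fall was not tested.

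The same step in fish challenged directly after copper, which shares no fish with the recovered step, gave 0 DEGs of 8567 transcripts tested in edgeR (0%), with 754 at an unadjusted p under 0.05. The DESeq2 Wald test gave 28 DEGs and limma-voom 1, against 156 and 39 in the recovered step. Without the low-count filter there were 56, against 479 in the recovered step. With all 9 groups in 1 edgeR fit the order was reversed, with 69 against 50 in the recovered step. Of the 45 risers, 43 were tested in directly challenged fish in the reported fit. Of these, 19 were above 0 and 24 below, with a median log2 fold change of -0.18 against -0.02 over all tested transcripts. At an unadjusted p under 0.05, 4 of the 43 were higher and 2 lower in Cu0h-4h than in Cu0h-1h fish, beside 4.28% and 4.52% of all tested transcripts. Without Cu0h-1h replicate 1, 30 of the 43 were below 0 (69.8%, against 50.4% of all tested transcripts) and the median was -0.26. In that fit 4 of the 43 were higher and 6 lower at an unadjusted p under 0.05, against 4.43% and 4.46% of all tested transcripts.

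Most fallers were below 0 in the immediate step too, but the size of their change shrank without Cu0h-1h replicate 1. Of 61 tested, 50 were below 0 (82.0%, against 52.0% of all tested transcripts). The median log2 fold change was -1.92, against -0.02 over all tested transcripts. In the downward direction 28 had an unadjusted p under 0.05 (45.9%, against 4.52% of all tested transcripts). Without Cu0h-1h replicate 1 the median was -0.31 and 4 of 61 passed an unadjusted p under 0.05 downwards (6.56%, against 4.46% of all tested transcripts). The number below 0 was still 48 of 61 (78.7%, against 50.4% of all tested transcripts). Cu0h-4h replicate 4, in which the fallers took 3.15% of the counts (the next 1.11%), stayed in both fits. The fallers' change without that fish was not determined.

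**Figure D5:**
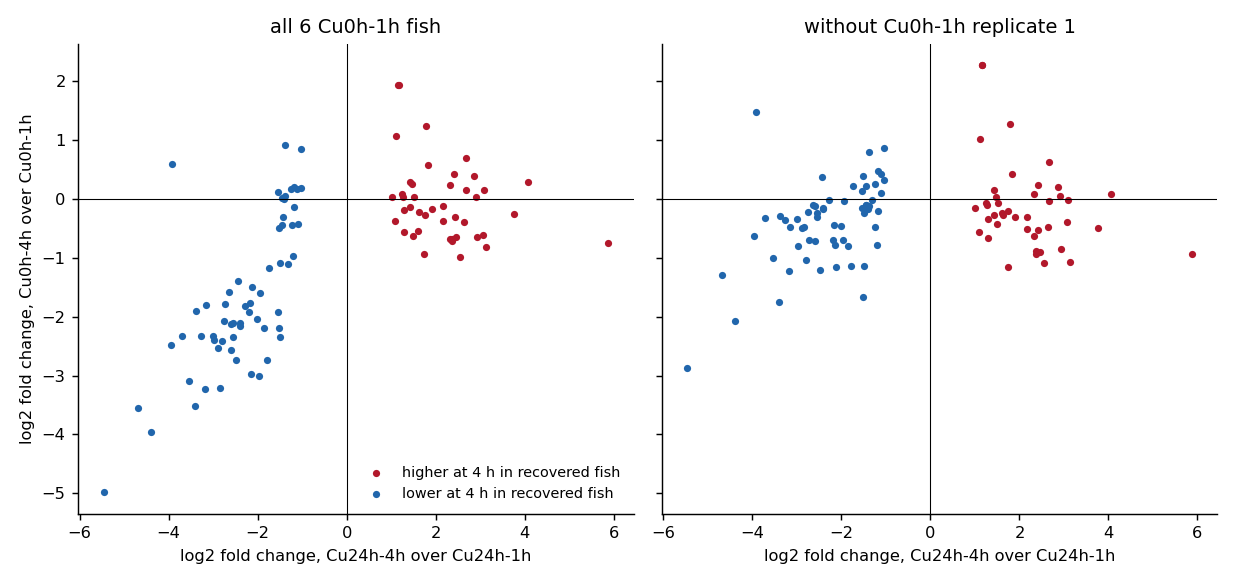
Log2 fold change of the step members in recovered fish (Cu24h-4h over Cu24h-1h, horizontal) and in fish challenged directly (Cu0h-4h over Cu0h-1h, vertical), with all 6 Cu0h-1h fish (left) and without Cu0h-1h replicate 1 (right). On the left the fallers have a vertical median of -1.92 and on the right of -0.31. The risers have vertical medians of -0.18 on the left and -0.26 on the right, where 30 of 43 are below 0.

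The risers were chosen on the recovered fish, so their levels in the copper schedules are set side by side as a description. At 1 h the 45 risers took 0.174 to 0.231% of the counts in Cu24h-1h fish (median 0.201%), against 0.200 to 0.687% in Cu0h-1h fish (median 0.544%). Every Cu0h-1h fish lay above all Cu24h-1h fish except replicate 1, which at 0.200% lay among them. At 4 h they took 0.585 to 0.741% in Cu24h-4h fish, against 0.373 to 0.633% in Cu0h-4h fish (median 0.455%), and these groups overlapped. By mean level on the log scale, Cu0h-1h was nearer to Cu24h-4h for 24 of the 45 risers and nearer to Cu24h-1h for 21. The Cu0h-1h mean includes replicate 1, and the same count over all tested transcripts was not made.

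The difference between the steps was tested as an interaction over 24 libraries, the recovered step minus the immediate step. It gave 37 DEGs of 10043 transcripts tested (0.368%), 24 above and 13 below 0 (edgeR). Of these, 15 were risers and 2 fallers of the recovered step, and 20 were in neither list, including 8 that had not passed the filter in the recovered step. Because the members were chosen on the same recovered fish, their share among these DEGs says nothing about them. The older edgeR quasi-likelihood method called 20, with 8 risers and 2 fallers among them. In simulated data the newer method called more unchanged transcripts in this fit than its FDR threshold allows, which the older one did not. The simulation drew each transcript separately, without fish that are high for many transcripts at once. It therefore cannot show that either method keeps its threshold in these fish. Without Cu0h-1h replicate 1 the count was 73, whereas it was 22 without Cu24h-1h replicate 5 and 23 without Cu24h-1h replicate 2, Cu24h-1h replicate 3 or Cu24h-4h replicate 1.

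Both named rises were chosen for their size in the recovered fish that enter the interaction, so their interaction values are given as a description. For ENSIPUT00000011538 the interaction was 3.78 on the log2 scale (edgeR adjusted p = 0.00521), with a log2 fold change of 0.29 in directly challenged fish. For ENSIPUT00000011563 it was 2.94 (adjusted p = 0.0169), with 0.16 in directly challenged fish. Both were past the threshold also under the older edgeR method (adjusted p = 0.0145 and 0.0225) and in limma-voom (0.0133 and 0.0160). For the falling pair the interaction was not larger than the spread, at -0.56 for ENSIPUT00000017645 (adjusted p = 0.949) and -0.64 for ENSIPUT00000006983 (adjusted p = 0.885), and their log2 fold changes in directly challenged fish were -4.98 and -2.39, neither past the threshold (adjusted p = 0.364 and 0.454). Without Cu0h-1h replicate 1 the interaction values were -2.62 and -2.18 (adjusted p = 0.528 and 0.231), so their size depended on that fish.

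Fish of the same copper schedule at 24 h after challenge, compared with uninfected Cu24h fish, gave a second view on fish outside the step. This comparison called 9.82% of 8051 tested transcripts higher and 10% lower in Cu24h-24h fish. Of the 45 risers 41 were tested, 17 were higher and 2 lower, with a median log2 fold change of 0.93 against -0.06 over all tested transcripts. Of the 62 fallers 57 were tested, 35 were lower and 1 higher, with a median of -2.01. When single fish were left out, 17 to 21 risers and 28 to 39 fallers were called in either direction. ENSIPUT00000006983 was among the fallers that were lower, by a log2 fold change of -2.91 (edgeR adjusted p = 0.0171), and its groups overlapped. ENSIPUT00000017645 did not pass the filter in that comparison.

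By mean level, uninfected Cu24h fish were nearer to Cu24h-1h than to Cu24h-4h for 36 of the 45 risers and for 48 of the 62 fallers. At 24 h after challenge, 54 of the 62 fallers were nearer to the 4 h level, and 37 of them lay beyond it. The risers were divided, with 24 of 45 nearer to the 4 h level and 21 nearer to the 1 h level at 24 h. These positions are measured against the 1 h and 4 h fish that chose the members. They were not determined for the other tested transcripts, so the counts are a description. As a share of counts the risers took 0.550 to 0.776% at 24 h (median 0.627%), against 0.126 to 0.317% in uninfected Cu24h fish (median 0.274%), with no overlap between these groups. ENSIPUT00000029764 averaged 971 CPM in Cu24h-24h and 18.2 CPM in Cu24h fish, and ENSIPUT00000017590 averaged 797 and 25.8 CPM. In Cu24h-4h fish these transcripts averaged 174 and 223 CPM. The contrast in the risers' shares at 24 h therefore rests in large part on few transcripts. The fallers took 0.327 to 0.748% at 24 h, against 0.869 to 4.57% in uninfected Cu24h fish, also without overlap. Of the fallers, ENSIPUT00000010708 alone averaged 1164 CPM in Cu24h-24h and 15453 CPM in Cu24h fish, so this contrast in shares rests largely on 1 transcript.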

How the data were processed

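The authors deposited effective counts, that is an estimated count for each Ensembl transcript, made whole by rounding and not normalized, in 1 file per fish. The submitters' processing notes name Trim Galore 0.5.0, Bowtie2 2.3.4.3, eXpress 1.5.1 and DESeq2 1.24.0, with no role or order, whereas the study's methods describe STAR, HTSeq and edgeR. Such estimates divide reads between similar transcripts, which could not be checked here.

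Rows were matched by transcript ID. In R 4.3.3 filterByExpr (at least 10 counts in enough fish and 15 in all) and TMM normalization were applied to the libraries of each comparison, followed by the newer quasi-likelihood test of edgeR 4.0.16 with Benjamini-Hochberg adjustment. Counts of DEGs under both quasi-likelihood methods had been seen when this setting was fixed. For the recovered step the newer method gave the larger count, 107 (45 higher, 62 lower), against 81 (32 higher, 49 lower) with the older method. Each SE is the fold change divided by the root of its F value and is approximate. CPM values use TMM scaling over all 54 libraries, and list positions use log2(CPM + 1). The members and lists were chosen with earlier results of these data known. Named transcripts were, among DEGs without overlap between groups and at 50 CPM or more, the 2 largest rises and the 2 largest falls. The procedure was tested on simulated data. No pair of the 30 within the 12 fish was as close as sampling noise (smallest chi-square per transcript 5.71). Alternatives were DESeq2 1.42.0 (size factors, Wald test), limma-voom 3.58.1, no filter, all groups in 1 fit, a replicate block, thinning, no fold threshold, the older test and omission of each fish.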

Additional observations from a re-analysis of the deposited data

Results flagged for a closer look

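A fish far from the other 5 of its group was looked for in 48 sets of values, of which 8 were flagged, all at the high end. For normally distributed values chance flags about 1 in 20. The CPM values and shares were not checked for that distribution, so this rate may not hold for them. For the fallers' share of counts, the highest fish stood apart in Cu0h-1h (replicate 1, 13.2%, the next 3.87%), in Cu0h-4h (replicate 4, 3.15%, the next 1.11%) and in Cu0h-24h (replicate 1, 1.72%, the next 0.611%). Cu0h-1h replicate 1 also stood apart for ENSIPUT00000017645 (2298 CPM, the next 531 CPM) and for ENSIPUT00000006983 (435 CPM, the next 102 CPM). ENSIPUT00000017645 was furthermore high in Cu0h-4h replicate 2 (52.4 CPM, the next 17.1 CPM) and in Cu24h replicate 3 (253 CPM, the next 60.6 CPM). ENSIPUT00000011563 was high in Cu24h replicate 1 (63.0 CPM, the next 29.6 CPM). None of the flagged fish belonged to the 12 that chose the members. Because the members were chosen on those 12, this does not set them apart from the other fish.

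The interaction test in edgeR called 37 transcripts whose step differed between copper schedules. The interaction was 3.78 on the log2 scale for ENSIPUT00000011538 and 2.94 for ENSIPUT00000011563, both of which were named for their rise in the recovered fish of the same test, so these values are not independent of that choice.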

How the results depend on the processing

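The 107 DEGs of the recovered step stayed within 1.5 times in 18 of 21 alternatives, and the number was 77 to 129 when single fish were left out. Exceptions were no low-count filter (479 DEGs, 216 higher and 263 lower, among 29201 transcripts tested), all 9 groups in 1 fit (50) and limma-voom (39). The interaction count of 37 was 84 with the DESeq2 Wald test, 74 without the filter, 22 with the replicate block, 20 with the older method and 22 to 73 without single fish. The immediate step had 28 DEGs with the DESeq2 Wald test, 56 without the filter, 69 with all groups in 1 fit, 1 with the replicate block, 1 in limma-voom and 0 to 2 without single fish. The comparison of Cu24h-24h with Cu24h had 1598 DEGs, 2748 without the filter, 2683 with all groups in 1 fit and 1099 with the replicate block. The difference in total count was 141119 to 219062 without single fish (exact permutation p = 0.0173 to 0.0823) and did not pass the threshold in 7 of these 12.

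The replicate numbers paired no fish by the labels. The deviations of same-numbered fish correlated at -0.02 to 0.16, with 1 of 6 over 0.1, and 2 fish correlated best with their own number. With the replicate block the recovered step had 110 DEGs, of which 93 were among the 107. Both named rises kept their call in 21 of 21 alternatives. Of the 37586 transcripts, 31436 did not pass the low-count filter of the recovered step and were not tested in the reported fit.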
